A study of Drosophila melanogaster with 24 samples.

Results

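Of the 17637 genes in the expression tables, the 50 described here are those whose name begins with Obp, the odorant binding proteins of *Drosophila melanogaster*. Members were taken by this name alone, with no measured value used. Each was found by name in the BDGP6 gene annotation, which lists 51 genes so named, and Obp50b, the remaining one, was not analysed here. The gene *lush*, an odorant binding protein named for its phenotype, is likewise no member.

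Odorant binding proteins are small, secreted, soluble proteins held in shape by disulphide bonds. In the antenna, the palps and the taste bristles, support cells release them into the lymph that bathes the dendrites of chemosensory neurons, where they bind odours, tastants or pheromones. Several members are also made outside sensory hairs, among them in glia, fat body and the male reproductive tract, and many lie in tandem groups that arose by gene duplication.

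The measurements came from RNA-seq of heads of mated w1118 females, a white-eyed strain used as the control genotype. Flies were kept on yeast, cornmeal and molasses in a cycle of 12 h light and 12 h dark. Whether antennae stayed on the collected heads is not given in the sources used here. Old flies were 55 days of age and young flies 5 days. Heads were collected at ZT (Zeitgeber time, counted in hours from lights on) 0, 4, 8, 12, 16 and 20, in 2 libraries per age and time, which gave 12 old and 12 young libraries, each from the pooled heads of many flies. No group carried a transgene or a treatment, so the comparisons are those of age and of time of day.

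Expression was deposited as FPKM, the fragments mapped to a gene after division by transcript length and library depth. Deposited values in the old table stood higher by 0.22 on the log2 scale over 9159 genes. How the 2 tables were normalized is not given in the sources used here. Levels are therefore given as scaled FPKM, in which each library was divided by its median ratio to the average library. Deposited FPKM is named where it was used. These ratios also moved with time of day. On the log2 scale they were 0.203 and 0.176 at ZT0 but -0.006 and -0.005 at ZT12 in old heads. In young heads they were -0.055 and -0.050 at ZT0 but -0.263 and -0.225 at ZT12. Scaling therefore also removed this daily part. Libraries of one age were alike, each with a median correlation across genes of 0.975 to 0.985 with the others. Sequencing depth, read relative to the average library from the steps of low FPKM values, ran from 0.802 to 1.203 and averaged 0.989 in old and 1.01 in young heads. The photoreceptor opsin gene *ninaE* stood at 7937 to 13129 deposited FPKM in old and 9007 to 11863 in young heads, whereas the olfactory co-receptor gene *Orco*, which marks most olfactory neurons, was low, with at most 0.563 deposited FPKM in old and 0.988 in young heads. Among marker genes of the main head tissues, all 5 neuronal markers tested were lower in old heads, with a median log2 fold change of -0.54, as were 3 of 5 photoreceptor markers and 1 of 4 muscle markers, while of 7 glial markers 2 were higher and 3 lower. In such bulk samples, fewer cells of a type and less RNA per cell cannot be told apart.

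The members differed in level over the full range of the assay. By their mean deposited FPKM over the 24 libraries, 8 members exceeded 100, 7 lay between 10 and 100, 11 lay between 1 and 10, 21 were detected with a mean under 1, and 3 (Obp50d, Obp56i and Obp93a) were listed at 0 in every library. Between 14 and 20 members were at 0 in any one library. Of the Obp signal summed in deposited FPKM, the 5 most abundant members made up 78.3% in old and 71.4% in young heads. The 10 most abundant made up 94.5% in old and 94.2% in young heads. The sum over the members was 3371 ± 229 scaled FPKM in old and 3203 ± 295 in young heads (SD, n = 12 each), and its range of 3014 to 3670 in old heads lay within that of 2564 to 3696 in young heads.

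**Figure D1:**
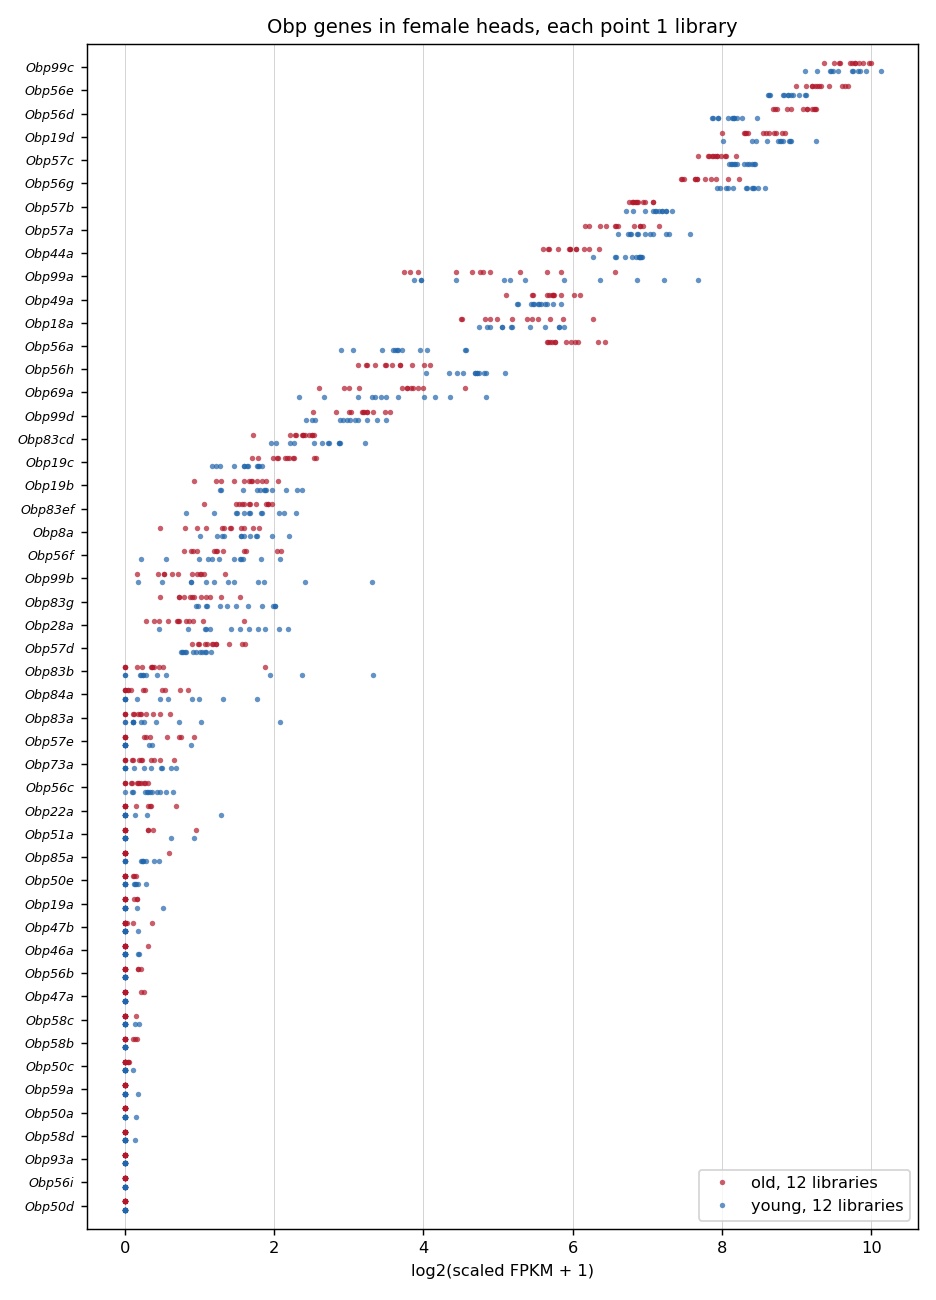
Level of each of the 50 Obp genes on a log2(scaled FPKM + 1) axis, with 1 point per library, old in red above young in blue, and genes ordered by mean level. The lower rows hold the members near 0, while Obp56a and Obp56d show no overlap between old and young points.

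The most abundant member was Obp99c (FBgn0039682). Of the signal summed in deposited FPKM, it alone took 25.2% in old and 25.1% in young heads. It ranged over 656 to 1019 scaled FPKM with a median of 866 in old heads, and over 553 to 1115 with a median of 802 in young heads. These ranges overlapped almost fully, and its log2 fold change of 0.096 was not called (limma adjusted P = 0.437). Without the first cycle of libraries its sign turned, to -0.054. Obp99c lies within the bounds of *Gycalpha99B* on the opposite strand. The kit was strand-specific, but whether strand was used in counting is not given in the sources used here.

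The longest annotated transcripts of the members ran from 398 to 1648 nt with a median of 627 nt, 26 of the 50 had 2 exons, and none had more than 5. The number in an Obp name is the cytological band of the gene, so position is largely given by the name. Chromosome arm 2R held 28 members, 3R 12, X 6, and 2L and 3L held 2 each. In all, 35 members stood in 8 neighbourhoods of adjacent or nearby Obp genes, and 15 overlapped another annotated gene.

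Age was tested by limma on log2(scaled FPKM + 1) in the 9809 genes with a mean above 1 deposited FPKM at either age, pooling the libraries of all times of day, with calls made at a Benjamini-Hochberg adjusted P of at most 0.01. Of the 50 members, 27 were tested, of which 5 were higher in old heads, 7 were lower and 15 were not called. Among all genes tested, 20.5% were higher, 20.8% lower and 41.4% called in either direction, so the members' counts stood near the background. The median log2 fold change was -0.21 over the tested members and 0.025 over all genes tested, with 10 members above 0 and 17 below. The filter on level let 1 member (Obp57d) pass through its old libraries alone and 3 (Obp28a, Obp83b and Obp99b) through their young libraries alone, so for these a difference was partly built in. With every gene above 0 in any library tested, the counts were again 5 higher and 7 lower.

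**Figure D2:**
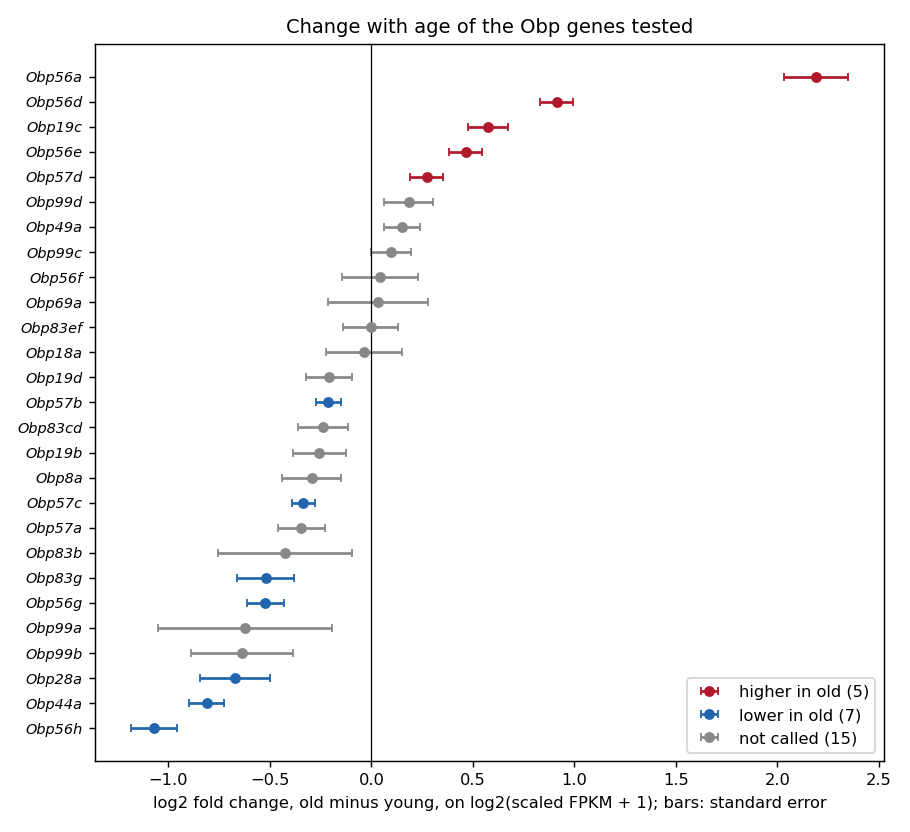
Log2 fold change, old minus young, on log2(scaled FPKM + 1) for the 27 Obp genes tested, with bars for the standard error. Red marks the 5 called higher in old heads, blue the 7 called lower and grey the 15 not called, with Obp56a at 2.19 at one end and Obp56h at -1.07 at the other.

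Both the highest and the lowest log2 fold change among the tested members came from one neighbourhood, the 9 Obp56 genes on chromosome arm 2R (positions 19697723 to 19868714, BDGP6). Of its 6 tested genes, 3 were higher in old heads (Obp56a, Obp56d and Obp56e), 2 were lower (Obp56g and Obp56h) and Obp56f was not called. The remaining 3 had means under 1 FPKM or were listed at 0.

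Obp56a (FBgn0034468, positions 19697723 to 19698508, 2 exons) had the largest change of any member. It ranged over 49.4 to 85.7 scaled FPKM with a median of 56.3 in old heads, and over 6.42 to 22.8 with a median of 11.6 in young heads. Every old library stood above every young one, and the mean of 60.5 ± 12.0 scaled FPKM in old heads was 4.63 times that of 13.1 ± 5.18 in young heads (SD, n = 12 each). The log2 fold change was 2.19 ± 0.16 (SE; limma adjusted P = 1.63e-11).

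Obp56d (FBgn0034470, positions 19702924 to 19703915), which is known from olfactory as well as taste organs, was among the 3 most abundant members. Its levels ran from 411 to 612 scaled FPKM with a median of 553 in old heads, and from 233 to 355 with a median of 281 in young heads, again with no overlap. The old mean was 1.89 times the young one, with a log2 fold change of 0.91 ± 0.081 (SE; limma adjusted P = 7.55e-10). Obp56a and Obp56d were the 2 members whose 12 old libraries all lay above the 12 young ones, a separation found in 4.67% of all genes tested. No member had all 12 old libraries below the young ones, against 7.02% of all genes.

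Obp56e (FBgn0034471), which is also known as a seminal fluid protein of males, ran from 509 to 822 scaled FPKM with a median of 623 in old heads, against 392 to 559 with a median of 472 in young heads. The ranges overlapped, yet at each of the 6 times of day both old libraries exceeded both young ones. The log2 fold change was 0.46 ± 0.081 (SE; limma adjusted P = 2.79e-05), and without the first cycle the call was lost (limma adjusted P = 0.0605). An annotated antisense RNA overlaps this gene.

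Obp56g (FBgn0034474), likewise known from seminal fluid, moved the other way. It ran from 174 to 298 scaled FPKM with a median of 201 in old heads, and from 242 to 379 with a median of 320 in young heads. At all 6 times both old libraries were below both young ones, and the log2 fold change was -0.52 ± 0.092 (SE; limma adjusted P = 3.14e-05). The call was lost in deposited FPKM (-0.30, limma adjusted P = 0.0195) and without the first cycle (limma adjusted P = 0.0124). Obp56f, which lies next to Obp56e and shares this known role, was low, with 1.62 ± 0.850 scaled FPKM in old and 1.57 ± 0.850 in young heads (SD, n = 12 each), and its log2 fold change of 0.044 was not called (limma adjusted P = 0.861).

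Obp56h (FBgn0034475), which is known for its part in mating behaviour, showed the largest decrease. Its levels ran from 7.76 to 16.0 scaled FPKM with a median of 10.6 in old heads, and from 15.4 to 33.1 with a median of 25.1 in young heads. A single young library, at ZT20 of the first cycle, reached into the old range. The old mean was 0.458 times the young one, and the log2 fold change was -1.07 ± 0.11 (SE; limma adjusted P = 1.58e-08).

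**Figure D3:**
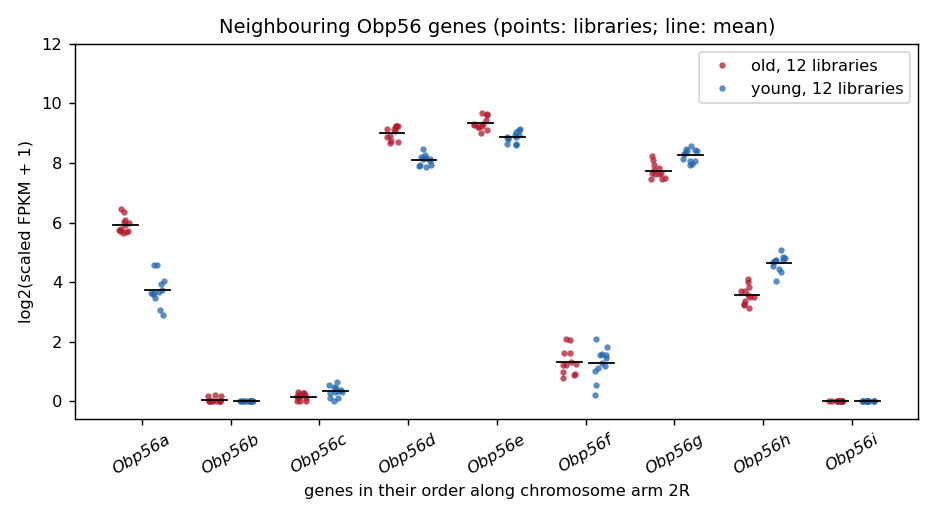
Log2(scaled FPKM + 1) of the 9 neighbouring Obp56 genes in their order along chromosome arm 2R, with 1 point per library, old in red left of young in blue, and a line at each mean. Obp56a, Obp56d and Obp56e stand higher in old heads, Obp56g and Obp56h lower, and Obp56b, Obp56c and Obp56i lie near 0 at both ages.

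A second neighbourhood on the same arm holds the 5 Obp57 genes, which are known from taste bristles. Obp57c, Obp57b and Obp57a follow one another on the plus strand, and Obp57e and Obp57d lie further along on the minus strand. Obp57c (FBgn0034509) ranged over 204 to 290 scaled FPKM with a median of 240 in old heads, and over 271 to 346 with a median of 304 in young heads. A single old library, at ZT0 of the first cycle, reached into the young range, and the log2 fold change was -0.34 ± 0.056 (SE; limma adjusted P = 1.79e-05).

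Obp57b (FBgn0043534) had 118 ± 8.96 scaled FPKM in old and 137 ± 16.7 in young heads (SD, n = 12 each), and its range of 106 to 134 in old heads lay within that of 104 to 160 in young heads. Its log2 fold change of -0.21 ± 0.062 (SE) was called (limma adjusted P = 0.00581), but the call was lost in 9 of the 24 fits that left out 1 library, at limma adjusted P values of 0.0104 to 0.0119. These were the fits without old ZT0 of the first cycle, either old ZT12 library, old ZT16 of the first cycle, either young ZT0 library, young ZT4 of the second, ZT8 of the first or ZT12 of the second cycle. Obp57a (FBgn0043535) stood at 101 ± 21.7 scaled FPKM in old and 128 ± 26.5 in young heads (SD, n = 12 each), and its log2 fold change of -0.34 ± 0.12 (SE) was not called (limma adjusted P = 0.0144), though it was without old ZT16 of the second cycle (limma adjusted P = 0.00463) or young ZT4 of the first (limma adjusted P = 0.00811). The calls of Obp57b and Obp57c depend on how the 2 tables are set against each other, since in deposited FPKM the log2 fold changes were 0.0093 (limma adjusted P = 0.917) for Obp57b and -0.11 (limma adjusted P = 0.174) for Obp57c.

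Obp57d and Obp57e are known for the taste of fatty acids in the choice of egg-laying sites. Obp57d (FBgn0043536) was close to the filter on level, at 0.867 to 2.06 scaled FPKM with a median of 1.27 in old heads and 0.681 to 1.23 with a median of 0.915 in young heads. Its log2 fold change of 0.27 ± 0.081 (SE; limma adjusted P = 0.00672) was called higher in old heads. The call was lost in 8 of the 24 fits that left out 1 library, at limma adjusted P values of 0.0118 to 0.0131, namely those without old ZT12 or ZT16 of the second or ZT20 of the first cycle, young ZT4, ZT12 or ZT16 of the second cycle or either young ZT8 library. The gene overlaps *Cpr57A* on the same strand, so the division of reads between the 2 is uncertain. Obp57e was not tested. It was at 0 in 5 of 12 old and 9 of 12 young libraries, and the low FPKM values corresponded to 15 fragments over the old and 5 over the young libraries.

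Of the members known from glia, Obp44a (FBgn0033268), a secreted protein of brain glia, was lower in old heads. Its range was 47.4 to 80.5 scaled FPKM with a median of 61.7 in old heads, against 76.3 to 120 with a median of 116 in young heads. At all 6 times both old libraries stood below both young ones, although 1 old and 1 young library overlapped. The log2 fold change was -0.81 ± 0.086 (SE; limma adjusted P = 1.66e-08). Glial markers moved in both directions, for instance *alrm* at -0.43 (limma adjusted P = 0.000554) and *moody* at 0.45 (limma adjusted P = 1.5e-05), and their part in the level of Obp44a was not tested. The gene overlaps *Pabp2* on the opposite strand.

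The members known from the antenna were mostly scarce in these libraries. Low expression and antennae lost when heads were collected cannot be told apart here. Obp59a, needed for humidity sensing, was at 0 in all 12 old and 11 of 12 young libraries. Obp19a was at 0 in 9 old and 10 young libraries. Obp83a and Obp84a were the nearest members below the filter, with means of 0.183 and 0.249 deposited FPKM in old and 0.454 and 0.516 in young heads. Obp83b, at 0.410 ± 0.725 scaled FPKM in old and 1.48 ± 2.72 in young heads (SD, n = 12 each), was the nearest above it. Low FPKM values of Obp83a and Obp83b were whole multiples of the value of 1 fragment, so fragments could be counted. Over all libraries, Obp83b had 32 fragments in old and 113 in young heads. It was not called for age (log2 fold change -0.42, limma adjusted P = 0.293), and its median was 0.282 scaled FPKM in old and 0.198 in young heads.

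These fragments were unevenly spread. Obp83b, which with its neighbour Obp83a shapes the antennal response to odours, had 62 fragments in the young ZT4 library of the second cycle, 25 in young ZT20 of the first cycle, 16 in young ZT12 of the second cycle, and 16 in old ZT20 of the first cycle. In the other 20 libraries it had between 0 and 3. Obp83a had 42 of its 72 young fragments in the same young ZT4 library and 12 in young ZT20 of the first cycle. The antennal gene *a10*, of the chemosensory protein family, also stood highest among young libraries there. It had 2.32 deposited FPKM in young ZT4 of the second cycle and 1.93 in young ZT20 of the first cycle, against at most 0.542 in the other young libraries. Among old libraries *a10* did not single out ZT20 of the first cycle, at 1.74 within a range of 0.499 to 2.09 deposited FPKM. *Orco* did not single out the 2 young libraries, at 0.725 and 0.556 deposited FPKM. Among old libraries it was highest in ZT20 of the first cycle, at 0.563. Over the whole antennal marker list of 15 genes, 8 stayed under 1 FPKM in every library, the summed level ranged over 15.4 to 24.01 deposited FPKM in old and 16.1 to 27.4 in young heads, and of 5 tested genes none was called higher and 1 lower. The part of these transcripts, or of the number of antennae in a pool, in the results was not tested.

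**Figure D4:**
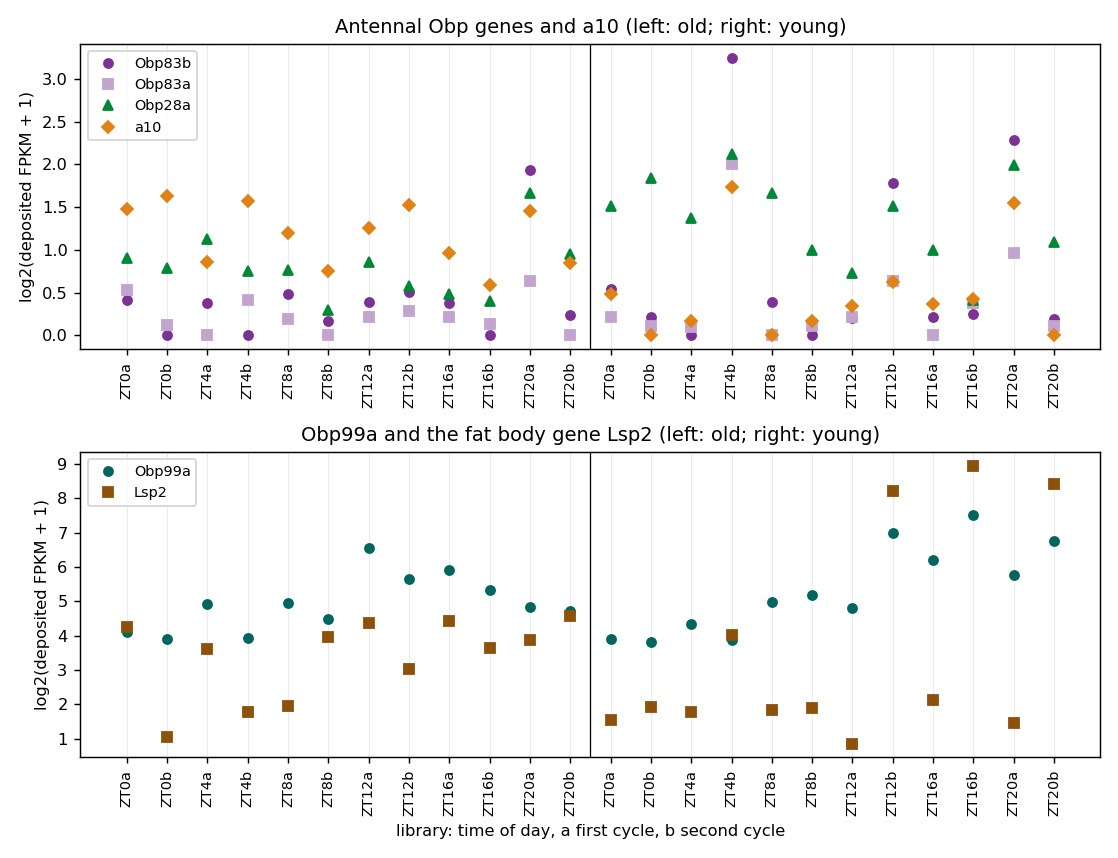
Deposited FPKM on a log2(FPKM + 1) axis in each library, old left of young, for antennal genes in the upper panel and for Obp99a and the fat body gene *Lsp2* in the lower panel. Among young libraries, Obp83b, Obp83a, Obp28a and *a10* stand highest together at ZT4 of the second cycle, and *Lsp2* is high in 3 young libraries of the second cycle in which Obp99a is also high.

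Obp28a (FBgn0011283), an antennal protein that buffers strong odour pulses, was called lower in old heads. It ranged over 0.215 to 2.04 scaled FPKM with a median of 0.654 in old heads, and over 0.374 to 3.57 with a median of 1.80 in young heads. The ranges overlapped widely, the fragments behind them numbered 68 in old and 157 in young heads, and the log2 fold change was -0.67 ± 0.17 (SE; limma adjusted P = 0.00221). Without the 3 libraries in which Obp83b exceeded 2.5 deposited FPKM, an alternative chosen after seeing the data, it was -0.61 (limma adjusted P = 0.00188). Young ZT12 of the second cycle, with 2.43 deposited FPKM of Obp83b, was kept in that fit. Without those libraries the counts of members were 4 higher and 6 lower, the calls of Obp57b and Obp57d being lost. The call of Obp28a was lost without the first cycle (limma adjusted P = 0.0277) and without the second (limma adjusted P = 0.0772).

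Obp83g (FBgn0046875) was of similar level, at 0.980 ± 0.409 scaled FPKM in old and 1.90 ± 0.826 in young heads (SD, n = 12 each), from 88 fragments in old and 158 in young heads. Its log2 fold change of -0.52 ± 0.14 (SE; limma adjusted P = 0.00302) was called lower. The call was lost in deposited FPKM (-0.40, limma adjusted P = 0.018), without the first cycle (limma adjusted P = 0.0132) and without the second (limma adjusted P = 0.182). Its neighbours Obp83cd and Obp83ef, which overlap each other on opposite strands, were not called, with log2 fold changes of -0.24 for Obp83cd (limma adjusted P = 0.109) and -0.0039 for Obp83ef (limma adjusted P = 0.984).

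In the Obp19 neighbourhood on the X chromosome (positions 20415744 to 20420979), Obp19c (FBgn0031111) was the member called. It ranged over 2.25 to 4.89 scaled FPKM with a median of 3.47 in old heads, and over 1.26 to 2.58 with a median of 2.07 in young heads. Only the lowest old libraries overlapped the young range, and the log2 fold change was 0.57 ± 0.098 (SE; limma adjusted P = 2.27e-05), a call lost without the second cycle (limma adjusted P = 0.0186). Obp19d (FBgn0011280), known from both olfactory and taste organs and among the 5 most abundant members, ran from 256 to 460 scaled FPKM with a median of 378 in old heads and from 258 to 614 with a median of 440 in young heads. Its log2 fold change of -0.21 was not called (limma adjusted P = 0.127), and in deposited FPKM it was 0.013 (limma adjusted P = 0.935).

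Obp49a (FBgn0050052), through which bitter compounds suppress sweet taste neurons, was at 33.4 to 67.4 scaled FPKM with a median of 52.0 in old heads and at 37.2 to 56.4 with a median of 45.6 in young heads. These ranges overlapped and the log2 fold change of 0.15 was not called (limma adjusted P = 0.154). Of the 12 members listed as Plus-C, a subfamily with extra cysteines, it alone passed the filter, and 11 stayed under 1 FPKM in every library. Of the 7 members listed as seminal fluid proteins, 4 were tested, 1 (Obp56e) higher and 1 (Obp56g) lower, although these were females, and other genes of the male reproductive tract summed to at most 2.88 deposited FPKM in old and 4.42 in young heads. Of the 8 members listed as antennal, 4 were tested, 1 (Obp56d) higher and 1 (Obp28a) lower.

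Time of day was tested within each age by limma's F test of 24 h cosine and sine terms, in genes with a median of at least 1 deposited FPKM, with calls at an adjusted P of at most 0.05 and a highest library at least 1.5 times the lowest. In old heads 3 of 23 members tested were called rhythmic (Obp69a, Obp99a and Obp19c), and in young heads 3 of 25 (Obp69a, Obp99a and Obp99d). Among all genes tested, 9.61% were called in old and 8.37% in young heads. Amplitudes are given from midline to peak on log2(scaled FPKM + 1).

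Obp69a (FBgn0011279), which is known to respond to social exposure and to shape sensitivity to the male pheromone cVA, was called rhythmic at both ages. In old heads its 2 libraries had 22.4 and 15.01 scaled FPKM at ZT0, 13.5 and 14.2 at ZT4, 13.2 and 12.1 at ZT8, 7.83 and 7.05 at ZT12, 5.09 and 6.67 at ZT16, and 12.8 and 12.7 at ZT20. In young heads they had 16.9 and 19.5 at ZT0, 15.04 and 27.6 at ZT4, 9.79 and 11.6 at ZT8, 5.35 and 9.25 at ZT12, 7.74 and 4.06 at ZT16, and 10.3 and 8.93 at ZT20. The profile was thus high around lights on and lowest at ZT16 at both ages, by a ratio of time means of 3.18 in old and 3.62 in young heads. The fitted peak was at ZT 1.9 with an amplitude of 0.67 in old heads (limma adjusted P = 0.00476) and at ZT 2.5 with an amplitude of 0.86 in young heads (limma adjusted P = 0.00431). With time of day as a factor in place of the 24 h terms the young call was lost (limma adjusted P = 0.0768), and without either cycle, which left 6 libraries an age, both were, at limma adjusted P values of 0.233 and 0.475 in old and 0.215 and 0.149 in young heads. Its mean level did not differ detectably with age, with a log2 fold change of 0.033 ± 0.24 (SE; limma adjusted P = 0.921) whose sign turned, at most to -0.079, without either old ZT0 library, young ZT12 of the first cycle or either young ZT16 library. The gene lies across *CG32104* on the opposite strand.

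**Figure D5:**
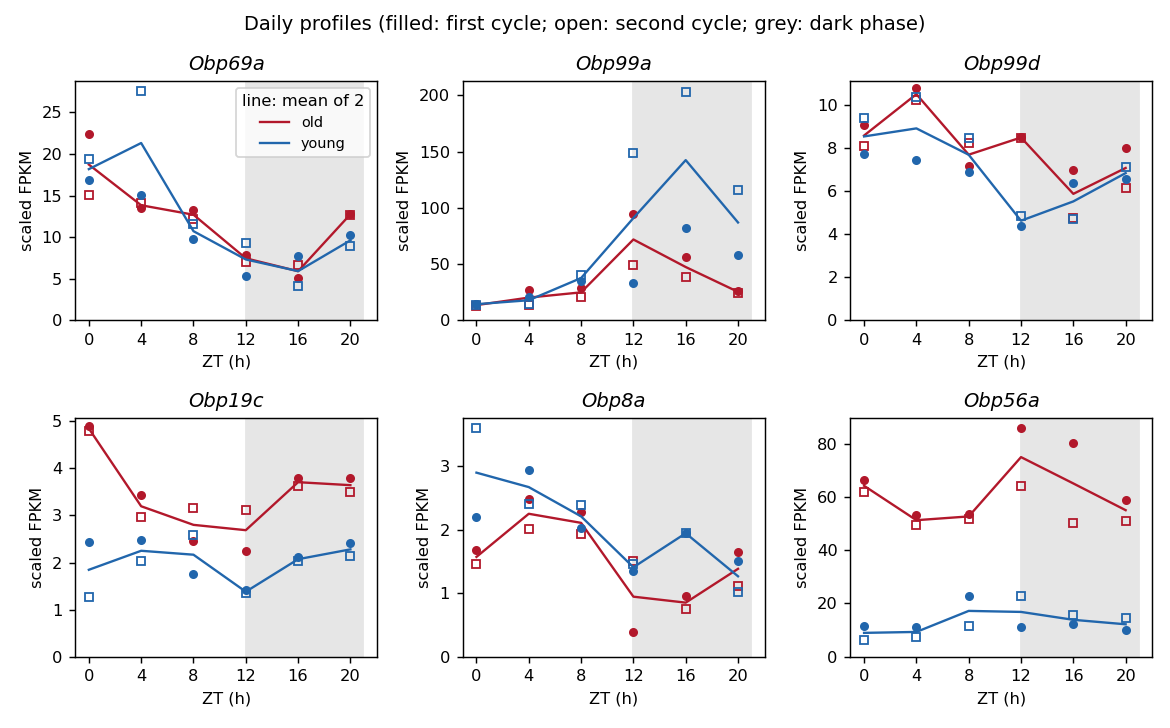
Scaled FPKM of 6 Obp genes by time of day, with old in red, young in blue, filled points for the first and open points for the second cycle of libraries, lines through the means of 2, and the dark phase in grey. Obp69a is lowest at ZT16 at both ages, Obp99a is highest in the dark phase, and Obp56a is higher in old heads at every time.

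Obp99a (FBgn0039678) ran in a nearly opposite phase. In old heads its 2 libraries had 14.2 and 12.4 scaled FPKM at ZT0, 26.9 and 13.2 at ZT4, 28.7 and 20.7 at ZT8, 94.2 and 49.3 at ZT12, 56.3 and 38.1 at ZT16, and 26.1 and 24.15 at ZT20. In young heads they had 14.6 and 13.7 at ZT0, 20.6 and 14.7 at ZT4, 34.9 and 39.98 at ZT8, 32.8 and 149 at ZT12, 81.5 and 203 at ZT16, and 58.3 and 115.5 at ZT20. The level was lowest at lights on at both ages, and in young heads the 2 libraries of each time from ZT12 on lay far apart. The fitted peak was at ZT 13.4 with an amplitude of 1.03 in old heads (limma adjusted P = 0.00546) and at ZT 15.2 with an amplitude of 1.53 in young heads (limma adjusted P = 0.0122).

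The 3 young libraries with the most Obp99a, at ZT12, ZT16 and ZT20 of the second cycle, were also those with the most *Lsp2*, a storage protein gene of the fat body, at 297, 492 and 345 deposited FPKM, against at most 15.3 in the other young and 22.7 in the old libraries. The 8 fat body genes measured summed to 8077 to 13055 deposited FPKM in old and 12281 to 29775 in young heads. Of the 6 tested, 3 (the yolk protein genes *Yp1*, *Yp2* and *Yp3*) were lower in old heads and none higher, while *Fbp1* and *Fbp2* stayed under 1 FPKM. The part of fat body transcripts in the profile of Obp99a was not tested beyond leaving out those 3 libraries, an alternative chosen after seeing the data. Without them the young rhythm of Obp99a missed the threshold (limma adjusted P = 0.0636), as did that of Obp99d (limma adjusted P = 0.142), so that 1 member, Obp69a, was called in young heads. The fitted amplitude of Obp99a without them was 1.07 in young heads, with its peak at ZT 14.7. Without the 3 libraries above 2.5 deposited FPKM of Obp83b, of which 2 were young, the same 2 calls were lost (limma adjusted P = 0.0629 for Obp99a and 0.0819 for Obp99d) at an amplitude of Obp99a of 1.53. The 2 sets of libraries did not overlap, but young ZT12 of the second cycle, rich in *Lsp2*, was just under that cut. It had 2.43 deposited FPKM of Obp83b. The young call of Obp99a was also lost with time of day as a factor (limma adjusted P = 0.089) and in a fit of the ARSER kind (unadjusted P = 0.0761). Between ages, Obp99a had a log2 fold change of -0.62 ± 0.43 (SE; limma adjusted P = 0.232), and of -0.035 without the 3 libraries rich in *Lsp2* (limma adjusted P = 0.944).

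Obp99d (FBgn0039684) had time means of 8.58 scaled FPKM at ZT0, 10.5 at ZT4, 7.69 at ZT8, 8.48 at ZT12, 5.87 at ZT16 and 7.07 at ZT20 in old heads. In young heads the time means were 8.53 at ZT0, 8.91 at ZT4, 7.68 at ZT8, 4.62 at ZT12, 5.51 at ZT16 and 6.83 at ZT20. Both ages were thus highest at ZT4, and the trough fell at ZT16 in old and at ZT12 in young heads. The old rhythm, with an amplitude of 0.28, was not called (limma adjusted P = 0.0918), and the young one was, with a peak at ZT 2.2 and an amplitude of 0.39 (limma adjusted P = 0.0171). For Obp19c the old libraries had time means of 4.84 scaled FPKM at ZT0, 3.19 at ZT4, 2.80 at ZT8, 2.69 at ZT12, 3.70 at ZT16 and 3.64 at ZT20, with a fitted peak at ZT 22.1 and an amplitude of 0.28. This rhythm was just inside the threshold (limma adjusted P = 0.0478) and left it, at limma adjusted P values of 0.0626 to 0.114, in the 10 fits without 1 old library other than ZT16 of the first or ZT20 of the second cycle, whereas in young heads the adjusted P was 0.724 by the same limma test.

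A call at one age alone does not show a difference between ages, for which age and the 24 h terms were tested for interaction. None of the 26 members tested was called (limma adjusted P at most 0.05), against 0.291% of all genes. At an unadjusted limma P of at most 0.05 there were 4 members, against 6.32% of all genes. These were Obp83g (unadjusted P = 0.0114), Obp99b (0.0192), Obp49a (0.0293) and Obp57d (0.0492), and their adjusted P values were at least 0.585. Obp99b (FBgn0039685), also named *tsx* and known from the fat body of the male head, had 8.91 and 4.31 scaled FPKM in the young libraries of ZT16 and between 0.128 and 2.64 in the other young libraries, against 0.123 to 1.53 in all old libraries. The highest values thus came from ZT16 in young heads. Young time means also exceeded old ones at ZT8 (1.65 against 0.708), ZT12 (1.88 against 0.608) and ZT20 (1.68 against 0.442). At ZT4 they were 0.714 in young and 0.684 in old heads, and at ZT0 0.631 in young and 0.837 in old heads. The gene was not called for age (log2 fold change -0.64, limma adjusted P = 0.0367).

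Among the 15 members with a mean of at least 10 deposited FPKM, the spread between libraries of one age, all times of day together, had a median coefficient of variation of 17.7% in old and 18.5% in young heads. Obp57c was among the steadiest, at 9.23% in old and 9.10% in young heads. Obp99a varied most, at 69.8% in old and 94.4% in young heads, followed in young heads by Obp69a at 54.4% and Obp56a at 39.7%. Obp18a (FBgn0030985), with 40.3% in old and 29.6% in young heads, also varied widely between libraries, yet no rhythm was called (limma adjusted P = 0.127 in old and 0.704 in young heads), and its 2 old libraries of ZT16 stood at 30.7 and 76.4 scaled FPKM.

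The 23 members not tested for age were scarce. In 19 of them every library stayed under 1 deposited FPKM, 3 were at 0 throughout, and 6 were detected at 1 age alone, the highest of them Obp47a, at no more than 0.208 deposited FPKM. At this depth their absence could not be told from a low level, and no difference between ages was read from them.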

How the data were processed

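The libraries were poly(A)-selected and strand-specific. Reads were filtered by the authors with skewer and mapped by TopHat to the dm6 assembly (BDGP release 6), and the FPKM values per gene and library that the authors deposited, in 1 table per age, are those of Cuffdiff. How libraries were normalized against each other, and whether Cuffdiff was told the strand, is not given in the sources used here. The tables also hold the authors' rhythm statistics, which were not used. Columns are named by hour over 2 cycles, so age and time of day follow from the name, but not which labelled replicate a column is.

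Pre-microRNA hairpins were left out, which left 17402 genes. Each library was scaled by its median ratio to the mean library, and log2(scaled FPKM + 1) was tested with limma 3.58.1 (eBayes with trend) in R 4.3.3, with Benjamini-Hochberg adjustment over all genes tested. Age was tested without a term for time of day, and rhythm by cosine and sine terms of 24 h. The limma tests of age, rhythm and interaction were first run on simulated data with independent noise and added changes of known size. Those data held no differences shared by many genes of a library, so such effects were not covered. Fragments were counted from the steps of low FPKM values, of which 93.6% lay within 0.1 of a whole number over 2158 genes. Absolute depth is unknown, so no counting interval is given. Python 3.11.15 with numpy 2.4.6, pandas 2.3.3 and matplotlib 3.10.9 was used otherwise.

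Genes named with values are the 10 most abundant members, every member called in a test, and the 2 on either side of the level filter. Obp8a, Obp18a, Obp56f, Obp57e, Obp59a, Obp19a, Obp83cd, Obp83ef and Obp99b were named or drawn after their values were seen, as was Obp47a. The members, the gene lists (antenna, taste, fat body, glia, neuron, photoreceptor, muscle, male reproductive tract, chemosensory proteins and 3 lists of Obp genes) and the tests were chosen with earlier results of these data known. Of 9 taste neuron genes, 2 were tested and none was called. The methods call the 2 libraries of a time biological replicates, and whether they were reared apart is not given in the sources used here. P values thus rest on the spread between these pools of flies. In the age test, which had no term for time of day, that spread also holds differences between times of day. Alternatives were the scaling, the pseudocount, the filters, the thresholds, time of day as a factor, the cycle as a block, a fit of the kind ARSER makes, and leaving out a cycle or a library. No sequences are shown.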

Additional observations from a re-analysis of the deposited data

How the results depend on the processing

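In deposited FPKM, 7 members were higher and 3 lower in old heads, and 80.0% of all genes called were higher, against 49.6% after scaling, with a median log2 fold change over all genes of 0.22 against 0.025. There Obp19d (0.013) and Obp57b (0.0093) changed sign, Obp56g (-0.30, limma adjusted P = 0.0195), Obp57c and Obp83g (-0.40, limma adjusted P = 0.018) lost their calls, and Obp49a (0.37, limma adjusted P = 0.00189) and Obp99c (0.32, limma adjusted P = 0.00703) gained one. Obp56a, Obp56d, Obp56h and Obp44a kept their direction and call under every alternative run, cycle left out included. A filter of 5 FPKM left 3 members higher and 5 lower in old heads. With 1 cycle left out, 3 members were higher and 3 or 4 lower, and 0 were rhythmic at either age. The age calls of Obp28a, Obp57d and Obp83g were lost without either cycle, those of Obp56e, Obp56g and Obp57b without the first and those of Obp19c and Obp57c without the second. With 1 library left out, 4 to 5 members were higher and 6 to 8 lower. Members called rhythmic numbered 2 to 5 in old heads, 5 without the ZT16 library of the first cycle, and 3 to 5 in young heads, 5 without the ZT8 library of the first cycle. Rhythmic members numbered 5 in old and 6 in young heads in deposited FPKM, 7 at either age in a fit of the ARSER kind at an unadjusted P, and 1 in young heads (Obp83g, the calls of Obp69a, Obp99a and Obp99d being lost) with time of day as a factor, under which Obp57a was called lower in old heads (limma adjusted P = 0.00795). Obp69a was the 1 member rhythmic in young heads without the 3 libraries above 2.5 deposited FPKM of Obp83b. The same held without the 3 richest in *Lsp2*. The fold change of Obp69a, never called, was -0.082 without the first cycle and -0.079 to 0.15 without 1 library, and -0.15 without the 3 libraries richest in *Lsp2*. That of Obp99c was -0.054 without the first and 0.25 without the second cycle. The cause of these differences was not tested. With the cycle as a replicate block, 5 members were higher and 7 lower in old heads, 2 rhythmic in old and 3 in young heads, and the block changed no call of a named member but that of Obp19c in old heads (limma adjusted P = 0.0616). Pairing by cycle was looked at through the deviations of first-cycle libraries from their group means. Over 66 pairs of groups the correlations of these deviations had a median of -0.020, ran from -0.32 to 0.32, and 11 exceeded 0.1. A check over all genes tested cannot exclude pairing of some libraries or for some genes. *Lsp2*, for one, was high in 3 young libraries, all of the second cycle. Members left out of the age test by the filter on level rested on few fragments, so that no difference between ages was read from them.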

Other observations

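The second family of small secreted carriers in insects, the chemosensory proteins, was measured through 3 genes, all of which were tested for age. *Phk-3* stood at 31.0 ± 6.33 deposited FPKM in old and 15.05 ± 4.31 in young heads (SD, n = 12 each) and was called higher in old heads, with a log2 fold change of 0.81 ± 0.13 after scaling (SE; limma adjusted P = 6.23e-06). *CG30172* stood at 44.4 ± 8.58 deposited FPKM in old and 57.4 ± 11.0 in young heads and was called lower, with a log2 fold change of -0.58 ± 0.097 after scaling (SE; limma adjusted P = 1.57e-05). The antennal gene *a10*, at 1.32 ± 0.561 deposited FPKM in old and 0.530 ± 0.770 in young heads, was not called (log2 fold change 0.60, limma adjusted P = 0.0105). The odorant binding protein gene *lush*, whose product binds the pheromone cVA, stood at 3.23 ± 0.974 deposited FPKM in old and 3.55 ± 1.46 in young heads and was not called (log2 fold change -0.24, limma adjusted P = 0.174).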
